A study of Rattus norvegicus with 6 samples.

Results

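A set of antioxidant and NRF2 target genes was followed in primary rat chondrocytes exposed to retinoic acid (RA). The genes were chosen by name from a list of 10: Nqo1, Hmox1, Gclc, Gclm, Txnrd1, Srxn1, Slc7a11, Sod2, Sod3 and Cat. Rows carrying these names were present for 9 of the 10 among 18923 genes, and Srxn1 was not analysed here. All 9 passed the filter on low counts, which left 13438 genes for testing. Chondrocytes, the cells that make and maintain cartilage matrix, came from wild-type Sprague-Dawley rats, female and 24 hours old, and were used at passage 1 or 2. The RA group (n = 3) received 1 µM all-trans retinoic acid for 24 h. The control group (CON, n = 3) received none over the same time, and both were grown in high-glucose DMEM with 10% serum. Each library was made from poly(A) RNA and is described as an independent sample. Whether the samples came from separate animals is not given in the sources used here, so each p-value measures the spread between these samples. The comparison asks how the transcripts of the antioxidant defence differed after RA exposure.

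NRF2, encoded by Nfe2l2, is the transcription factor that drives the cell's response to oxidants and electrophiles. In resting cells KEAP1 holds NRF2 in the cytoplasm and hands it over for degradation. When KEAP1 is modified, NRF2 enters the nucleus, pairs with a small MAF protein and binds the antioxidant response element, a short DNA sequence near genes for quinone reduction, glutathione synthesis and the thioredoxin cycle. BACH1 competes for the same element and represses Hmox1 in particular. The superoxide dismutases and catalase act directly on superoxide and hydrogen peroxide, and their genes are under several other controls besides NRF2. Retinoic acid receptors are known to interfere with NRF2 in some cell types. In cartilage, oxidants are associated with matrix loss and with ageing of chondrocytes.

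Total counts were 30170909 to 38007486 in the CON libraries and 29370025 to 30952882 in the RA libraries. The counts behind the 9 genes ran from 490 (Gclm) to 19281 (Nqo1), far above a floor of 3 counts. CON sample 1 stood apart from its group: its median absolute log2 distance from the other CON samples was 0.224, against 0.107 and 0.166 for the other two and at most 0.100 in the RA group. The labels of the RA libraries were checked on known retinoid response genes, of which Cyp26a1, Cyp26b1, Rarb, Dhrs3 and Tgm2 were differentially expressed genes (DEGs), each higher in RA. Crabp2 (log2 fold change 0.40, edgeR adjusted p = 0.0859) and Stra6 (-0.44, adjusted p = 0.495) did not pass. Of the DEGs, Rarb (edgeR adjusted p = 0.0493) passed without CON sample 1 but in none of the other leave-one-out fits (0.0866 to 0.197), and Tgm2 (0.0105) did not pass without RA sample 3 (0.0574). Cyp26b1, which degrades retinoic acid, went from 1.51 ± 0.187 to 9.52 ± 0.916 FPKM (SD, n = 3). All 10 chondrocyte markers were present in every sample and all 10 fell in RA, with a summed level of 8030 to 9928 FPKM in CON and 5034 to 5364 FPKM in RA. The part of this drop in the results that follow was not tested. Fibroblast and perichondrium markers summed to 1535 to 1658 FPKM in CON and 1616 to 1647 FPKM in RA, most of it Col3a1, Thy1 and Lum. Of the 7, Pdgfra rose (log2 fold change 0.44, edgeR adjusted p = 0.00155) and Dcn fell (-0.41, adjusted p = 0.0378, which held in 2 of 6 leave-one-out fits). In bulk RNA, fewer cells of a type and less RNA per cell cannot be told apart.

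Of the 9 genes, 3 rose in RA, 1 fell and 5 did not pass the test. Cat, the gene of catalase, rose by 74.1%. Txnrd1, the gene of cytosolic thioredoxin reductase, rose by 24.3%, and Nqo1, the gene of NAD(P)H quinone dehydrogenase, rose by 22.5%. Slc7a11, the gene of the cystine transporter, fell by 32.1%. The classical targets Hmox1, Gclc and Gclm and the dismutases Sod2 and Sod3 did not pass the test. Passing means a Benjamini-Hochberg adjusted p below 0.05 in edgeR's quasi-likelihood test over all genes tested, and a DEG must also have an absolute log2 fold change above 0.58. Of all genes tested 9.82% passed, made up of 5.31% higher and 4.50% lower in RA. DEGs made up 4.96% of the genes tested, 2.67% higher and 2.29% lower, and Cat was the 1 DEG among the 9. The CON and RA values did not overlap for 7 of the 9 genes, a property shared by 32.2% of all genes. The median log2 fold change of the 9 was 0.11, against -0.0057 over all genes tested.

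**Figure D1:**
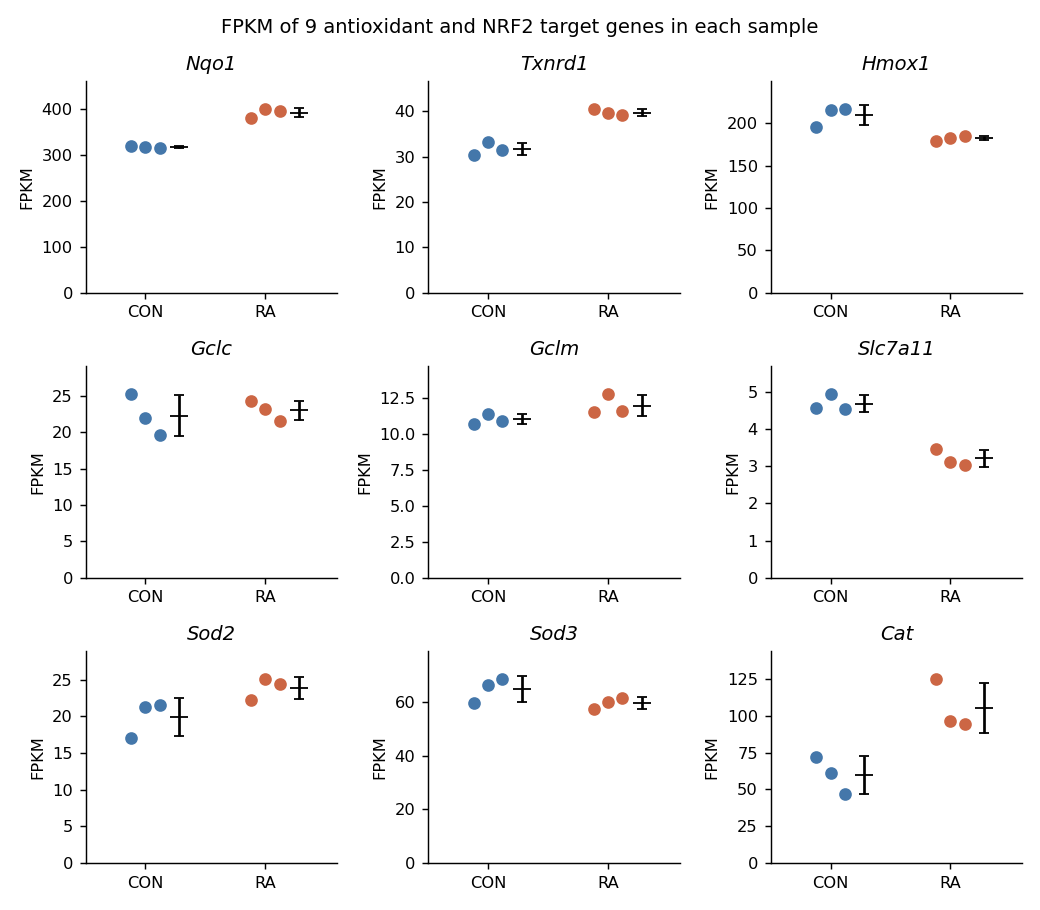
FPKM of each gene (vertical axis, starting at 0 in every panel) in the 3 CON samples (blue) and the 3 RA samples (orange), with the group mean and SD in black. The RA points lie wholly above the CON points for Nqo1, Txnrd1, Gclm, Sod2 and Cat, wholly below them for Hmox1 and Slc7a11, and among them for Gclc and Sod3.

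FPKM, a count of fragments scaled to gene length and library size, allows levels of different genes to be set in order. Nqo1 was the highest of the 9, with a mean of 354 FPKM over the 6 samples, and Hmox1 followed at 196 FPKM. Cat averaged 82.7 and Sod3 62.4 FPKM, and the ranges of these neighbours overlapped. By group mean, Sod3 was the higher in CON and Cat in RA, although in CON sample 1 Cat was above Sod3. Txnrd1 averaged 35.7 FPKM. Gclc at 22.7 and Sod2 at 21.9 FPKM overlapped as well, with Gclc having the higher mean in CON and Sod2 in RA. CON sample 3 and RA sample 1 had the opposite order. Gclm averaged 11.5 FPKM, and Slc7a11 was the lowest at 3.95 FPKM. The remaining neighbours in this order had separate ranges over the 6 samples.

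The core of the antioxidant response element is commonly written TGACNNNGC. Windows of 300 bases around the transcription start (250 bases before it and 50 after) were taken from the RefSeq promoter table of build GRCr8 and searched for these 9 letters on both strands, the other strand reading GCNNNGTCA. The deposited values were made on Rnor_6.0, so the coordinates below belong to GRCr8 alone. A window was given for 7 of the 9 genes, Txnrd1 had 2, and the letters were found for 3 genes. Hmox1 and Sod3 had no window and were not searched. Of all 33469 windows in the table, 12.1% held them. The stretches of 61 bases around each match are shown because they place the element's letters beside the start of 1 gene that rose and 2 that did not pass the test, and the capitals mark the match, here on the antisense strand each time:
Txnrd1: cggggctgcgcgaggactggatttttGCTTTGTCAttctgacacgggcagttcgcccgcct
Gclm: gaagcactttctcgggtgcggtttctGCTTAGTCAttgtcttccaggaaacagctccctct
Sod2: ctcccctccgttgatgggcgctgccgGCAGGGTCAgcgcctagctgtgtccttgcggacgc
The Txnrd1 stretch lies at chr7:22755948-22756008 on the minus strand, and its match runs from 78 to 70 bases before the start. For Gclm the stretch is chr2:213031937-213031997 on the plus strand, with the match 172 to 164 bases before the start. For Sod2 it is chr1:50050169-50050229 on the minus strand, with the match 35 to 27 bases before the start. A match of letters is not a measured binding site, and elements outside these windows were not searched.

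Nqo1 (ENSRNOG00000012772) encodes an enzyme that detoxifies quinones by reducing them and is widely used as a readout of NRF2 activity. Its level was 319, 317 and 314 FPKM in CON samples 1 to 3 and 380.0, 400.0 and 394 FPKM in RA samples 1 to 3. The CON samples lay within a very narrow range and every RA sample was above it. The mean went from 317 ± 2.27 to 392 ± 10.4 FPKM (SD, n = 3), a log2 fold change of 0.29 (SE 0.0508, 95% interval 0.176 to 0.409, edgeR adjusted p = 0.00835). The increase was below the fold threshold of a DEG. When samples were left out singly, Nqo1 passed 3 times of 6. Its adjusted p was 0.0532 without CON sample 2, and 0.0675 and 0.0641 without RA samples 2 and 3, at log2 fold changes of 0.27 to 0.29.

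Txnrd1 (ENSRNOG00000009088), whose promoter stretch is printed above, encodes the selenoenzyme that keeps thioredoxin reduced. It was measured at 30.4, 33.1 and 31.4 FPKM in CON and at 40.5, 39.5 and 39.0 FPKM in RA. The groups were well apart, with a mean of 31.6 ± 1.38 against 39.7 ± 0.775 FPKM (SD, n = 3). This gave a log2 fold change of 0.31 (SE 0.0583, 95% interval 0.18 to 0.448, edgeR adjusted p = 0.0114), close to that of Nqo1. The call was lost when any RA sample was left out (adjusted p = 0.0632, 0.0677 and 0.0586 without RA samples 1, 2 and 3), at log2 fold changes of 0.31 to 0.32.

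Hmox1 (ENSRNOG00000014117) encodes heme oxygenase 1, which opens heme into biliverdin, iron and carbon monoxide. Unlike Nqo1 and Txnrd1, its values were lower in RA: 196, 215 and 217 FPKM in CON and 179, 183 and 184 FPKM in RA. The groups did not overlap, though CON sample 1 lay nearer to the RA samples than to the other CON samples. The means were 209 ± 11.9 and 182 ± 2.48 FPKM (SD, n = 3). The log2 fold change of -0.21 (SE 0.0627, 95% interval -0.357 to -0.07) did not pass the test (edgeR adjusted p = 0.0734). Without CON sample 1 it was -0.26 with an adjusted p of 0.00167, and DESeq2 gave 0.0353 on all 6 samples. Over all alternatives the adjusted p ran from 0.00167 to 0.234. Macrophages are another common source of Hmox1. Macrophage markers summed to 13.6 to 14.8 FPKM in CON and 16.2 to 17.6 FPKM in RA, nearly all of it Cd14 and Cd68, and 8 of the 10 measured were under 0.5 FPKM in every sample, with the defining markers Ptprc and Adgre1 at no more than 0.027 FPKM.

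Glutathione is made in 2 steps, the first of which joins glutamate to cysteine and sets the rate. Gclc (ENSRNOG00000006302) encodes the catalytic subunit of that first enzyme, and read 25.3, 22.0 and 19.6 FPKM in CON and 24.3, 23.2 and 21.6 FPKM in RA. The groups overlapped. The means were 22.3 ± 2.86 and 23.0 ± 1.33 FPKM (SD, n = 3) and the log2 fold change 0.03 (SE 0.0936, 95% interval -0.181 to 0.248, edgeR adjusted p = 0.862). The upper bound of that interval was below the fold change of Nqo1, but the interval of Nqo1 (0.176 to 0.409) overlapped it. The difference between the 2 genes was not tested. The value depended on single samples, at 0.13 without CON sample 1 and -0.043 without CON sample 3.

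Gclm (ENSRNOG00000013409), the second gene with a printed promoter stretch, encodes the modifier subunit that makes the ligase more efficient. It stood at 10.7, 11.4 and 10.9 FPKM in CON and at 11.6, 12.8 and 11.6 FPKM in RA. Each RA value was above each CON value, by a small margin. The means were 11.03 ± 0.35 and 11.99 ± 0.713 FPKM (SD, n = 3), and the log2 fold change of 0.11 (SE 0.0849, 95% interval -0.088 to 0.301) did not pass the test (edgeR adjusted p = 0.488). Without RA sample 2 it was 0.053 (adjusted p = 0.84). The ratio of Gclm to Gclc FPKM was 0.424, 0.519 and 0.558 in CON and 0.477, 0.552 and 0.536 in RA. These overlapped, with means of 0.5 ± 0.0687 and 0.522 ± 0.0399 (SD, n = 3). The difference of 0.0213 did not pass a two-sided exact permutation test (p = 0.7, adjusted over the 2 within-sample quantities 0.7), in which 3 against 3 samples cannot give less than 0.1. Leaving out CON sample 1 turned that difference to -0.0168.

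Slc7a11 (ENSRNOG00000010210) encodes the light chain of the system that imports cystine in exchange for glutamate and feeds glutathione synthesis, and it is a target of both NRF2 and ATF4. It was the 1 gene of the 9 that fell. Its level was 4.56, 4.95 and 4.54 FPKM in CON and 3.47, 3.12 and 3.04 FPKM in RA. Every RA sample was below every CON sample, with means of 4.68 ± 0.23 and 3.21 ± 0.225 FPKM (SD, n = 3). Slc7a11 had a log2 fold change of -0.56 (SE 0.0742, 95% interval -0.728 to -0.389, edgeR adjusted p = 0.00235). The decrease passed the test with any single sample left out. It lay just short of the fold threshold of 0.58 and crossed it without CON sample 1 (-0.58) and without RA sample 1 (-0.61). Slc3a2, the gene of the heavy chain that carries SLC7A11 to the membrane, read 146, 163 and 168 FPKM in CON and 143, 149 and 143 FPKM in RA (log2 fold change -0.15, edgeR adjusted p = 0.235). It passed without CON sample 1 (-0.21, adjusted p = 0.00941) and was at -0.10 without CON sample 3.

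The superoxide dismutases turn superoxide into hydrogen peroxide in different places: SOD1 in the cytosol, SOD2 in mitochondria and SOD3 outside the cell, where cartilage holds much of it in the matrix. Sod2 (ENSRNOG00000019048) was measured at 17.0, 21.2 and 21.5 FPKM in CON and at 22.3, 25.1 and 24.4 FPKM in RA. The groups did not overlap, and CON sample 1 was the lowest of the 6. The means were 19.9 ± 2.53 and 23.9 ± 1.49 FPKM (SD, n = 3). Its log2 fold change of 0.25 (SE 0.104, 95% interval 0.011 to 0.489) did not pass once adjusted over all genes (edgeR adjusted p = 0.19). It was 0.15 without CON sample 1 (adjusted p = 0.166). With the replicate number added to the model as a block it was 0.256 (edgeR adjusted p = 0.0495).

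Sod3 (ENSRNOG00000003869) read 59.7, 66.7 and 68.8 FPKM in CON and 57.4, 60.3 and 61.6 FPKM in RA. CON sample 1 again lay away from its group and within the range of the RA samples. The means were 65.0 ± 4.76 and 59.8 ± 2.13 FPKM (SD, n = 3), and the log2 fold change of -0.14 (SE 0.0746, 95% interval -0.306 to 0.036) did not pass the test (edgeR adjusted p = 0.315). Without CON sample 1 it was -0.20, with an adjusted p of 0.0252, and without CON sample 3 it was -0.083, with 0.499. Sod1, which is no member of the list but the most abundant dismutase transcript, stood at 155 to 194 FPKM in CON and 178 to 189 FPKM in RA (edgeR adjusted p = 0.875).

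Within each sample the dismutase transcripts were also compared as shares of their summed FPKM. Sod3 made up 25.8, 23.6 and 25.1% of the sum in CON and 22.2, 22.6 and 22.4% in RA. The share was lower in every RA sample, with means of 24.8 ± 1.1 and 22.4 ± 0.183% (SD, n = 3) and a difference of -2.42 percentage points (-3.82 from counts without length scaling). The two-sided exact permutation p was 0.1, the smallest that 3 against 3 samples allow, or 0.2 adjusted over both within-sample quantities. Sod2 took 7.35 to 7.86% of the sum in CON and 8.63 to 9.42% in RA. Sod1 took 66.9 to 68.8% and 68.0 to 69.1%, and all 3 shares carry any uncertainty of the Sod1 value if its reads were shared with processed copies of the gene.

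**Figure D2:**
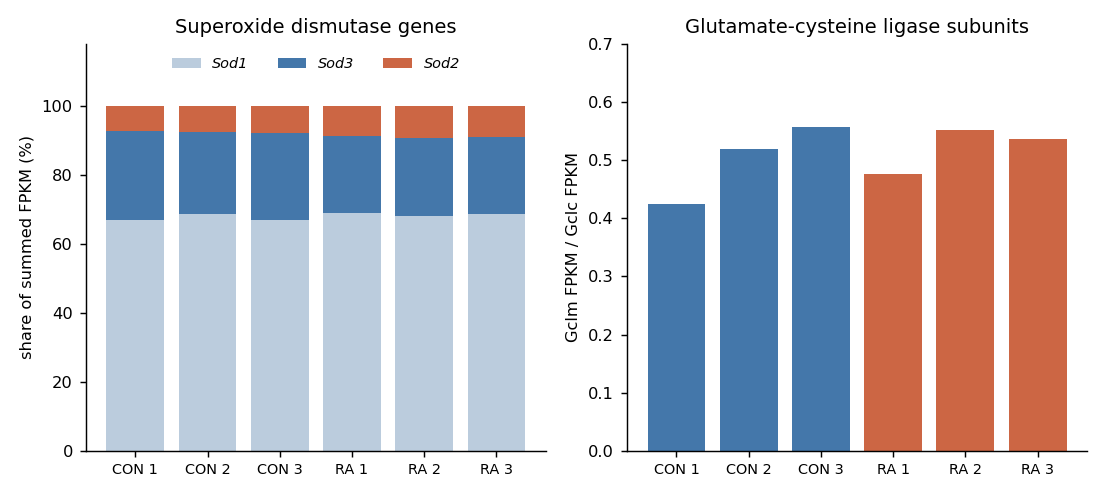
Left, the share of the summed FPKM of Sod1, Sod2 and Sod3 taken by each gene (percent) in each of the 6 samples. Right, the ratio of Gclm to Gclc FPKM in the same samples, CON in blue and RA in orange. The Sod3 band is 23.6 to 25.8% in CON and 22.2 to 22.6% in RA, whereas the ratios of both groups overlap.

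Cat (ENSRNOG00000008364) encodes catalase, the peroxisomal heme enzyme that splits hydrogen peroxide into water and oxygen. Of the 9 genes it had the largest fold change between the groups. Its level was 72.1, 61.3 and 46.6 FPKM in CON and 125, 96.6 and 94.3 FPKM in RA. The lowest RA sample lay above the highest CON sample, and Cat was also the gene whose replicates were widest apart, relative to the mean, in both groups. The mean went from 60.0 ± 12.8 to 105 ± 17.2 FPKM (SD, n = 3). For Cat the log2 fold change was 0.80 (SE 0.159, 95% interval 0.435 to 1.165, edgeR adjusted p = 0.0156). Leaving out samples singly kept Cat a DEG 4 times of 6. The call was lost without CON sample 2 (log2 fold change 0.81, adjusted p = 0.0655) and without RA sample 1, the highest sample (0.67, adjusted p = 0.0661). Red blood cells are rich in catalase, and the summed erythroid markers were 0.256 to 0.693 FPKM in CON and 0.835 to 1.13 FPKM in RA. The defining markers Alas2 and Slc4a1 were at no more than 0.019 FPKM in any sample, and Ahsp carried most of the sum in RA.

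**Figure D3:**
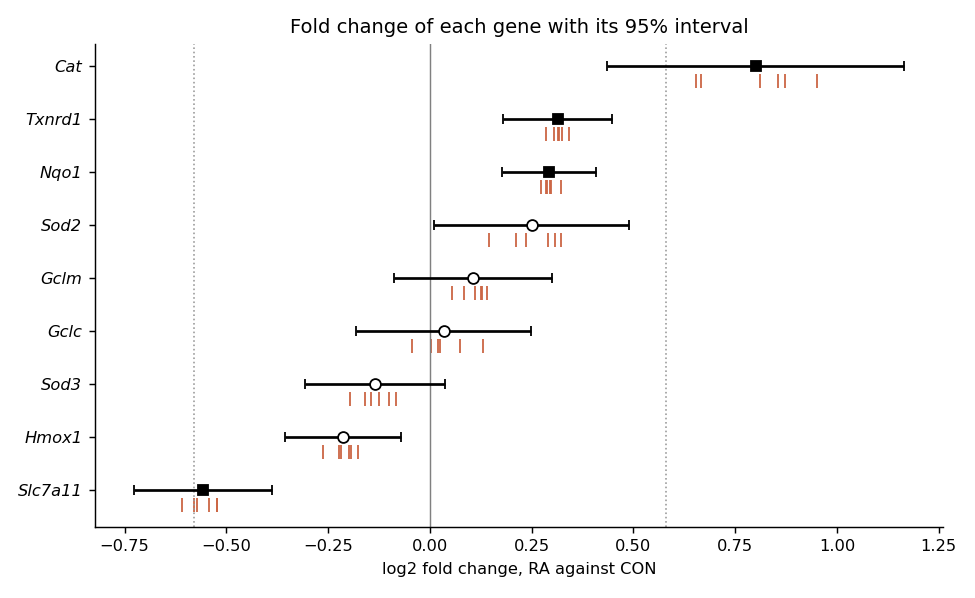
The log2 fold change of each gene in RA against CON (horizontal axis) with its 95% interval, filled where the adjusted p is below 0.05, and in orange the 6 values obtained by leaving out 1 sample each. Dotted lines mark the fold threshold of 0.58 in both directions. Cat at 0.80 lies beyond it, Slc7a11 at -0.56 lies just inside it, and the orange marks of Gclc fall on both sides of 0.

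The regulators of NRF2 were compared next, on a list of 10 genes. Nfe2l2 itself read 81.0, 69.4 and 65.8 FPKM in CON and 85.1, 80.6 and 79.1 FPKM in RA (log2 fold change 0.17, edgeR adjusted p = 0.252). Keap1 averaged 13.3 ± 2.03 and 15.1 ± 0.4 FPKM (SD, n = 3, log2 fold change 0.17, edgeR adjusted p = 0.385). Bach1 averaged 4.25 ± 0.644 and 5.31 ± 0.0146 FPKM (SD, n = 3, log2 fold change 0.31, edgeR adjusted p = 0.135). Neither NRF2, nor its inhibitor, nor its competitor at the element passed the test. Without CON sample 1, Nfe2l2 (0.26, adjusted p = 0.00451) and Bach1 (0.42, adjusted p = 0.00718) did, whereas Keap1 went to 0.049 (adjusted p = 0.623). Of the 10, 2 rose and none fell, where 5.31% of all genes rose and 4.50% fell. Maff, which encodes a small MAF partner of NRF2 and BACH1, read 1.96, 2.63 and 2.70 FPKM in CON and 4.63, 5.00 and 4.44 FPKM in RA. The log2 fold change of Maff was 0.93 (SE 0.153, edgeR adjusted p = 0.00652), and Maff remained a DEG whichever sample was left out. Mafg and Mafk, the other small MAF genes of the list, were more abundant and did not pass. Both were named after their values were seen. Mafg averaged 19.5 FPKM in CON and 21.3 in RA (log2 fold change 0.115, edgeR adjusted p = 0.393). Mafk averaged 12.5 and 11.8 FPKM (-0.098, adjusted p = 0.438). Sqstm1, named here after its value was seen, encodes p62, an autophagy receptor that binds KEAP1. Sqstm1 rose from 242 ± 22.4 to 303 ± 4.47 FPKM (SD, n = 3, log2 fold change 0.31, edgeR adjusted p = 0.0376). That call did not hold without CON sample 2 (0.0895) or any 1 of the RA samples (0.105 to 0.154).

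Among further NRF2 targets, 15 of 17 were tested, of which 1 rose and 1 fell, near the shares of all genes (5.31% and 4.50%). Me1, the gene of malic enzyme, which supplies NADPH, read 73.9, 57.0 and 54.9 FPKM in CON and 40.4, 41.0 and 38.3 FPKM in RA. It moved opposite to Nqo1 and Txnrd1, with a log2 fold change of -0.65 (SE 0.108, edgeR adjusted p = 0.00698). Me1 stayed a DEG unless CON sample 1 was left out, where its log2 fold change was -0.50 (adjusted p = 3.13e-05). Abcc1, named after its value was seen, encodes an exporter of glutathione conjugates and rose from 9.46 ± 0.184 to 11.6 ± 0.0487 FPKM (SD, n = 3, log2 fold change 0.28, edgeR adjusted p = 0.0185). The Abcc1 call was lost without CON sample 2 (0.0951) and without any 1 of the RA samples (0.0781 to 0.0991). The median log2 fold change of the 15 was 0.053.

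Other enzymes that act on superoxide, peroxides and thiols numbered 29, of which 28 were tested, 3 rose and 2 fell, beside 5.31% and 4.50% of all genes. Gpx3, which encodes the secreted glutathione peroxidase, read 32.5, 30.6 and 33.2 FPKM in CON and 61.6, 68.5 and 71.5 FPKM in RA. Its log2 fold change of 1.05 (SE 0.0788, edgeR adjusted p = 1.27e-04) was above that of Cat. Prdx5, the gene of a peroxiredoxin found in mitochondria and peroxisomes, read 91.9, 107 and 109 FPKM in CON and 179, 170.1 and 167 FPKM in RA (log2 fold change 0.73, SE 0.0801, edgeR adjusted p = 8.76e-04). Both remained DEGs whichever sample was left out. The sestrins, stress-induced regulators named after their values were seen, moved in both directions. Sesn2 fell from 37.7 ± 0.9 to 29.5 ± 0.576 FPKM (SD, n = 3, log2 fold change -0.37, edgeR adjusted p = 0.00496), as did Sesn1, from 8.06 ± 0.179 to 6.36 ± 0.115 FPKM (log2 fold change -0.36, edgeR adjusted p = 0.0118). Sesn3, the most abundant of them, rose from 51.4 ± 2.73 to 64.9 ± 1.18 FPKM (SD, n = 3, log2 fold change 0.32, edgeR adjusted p = 0.0101). The Sesn2 call held whichever sample was left out, but those of Sesn1 and Sesn3 did not hold without CON sample 2 (0.0612 for each) or any 1 of the RA samples (0.059 to 0.0806 and 0.0575 to 0.0594). The median of the 28 was 0.026, with 17 above 0, as were 6574 of the 13438 genes tested. Gpx4 was listed at 0 to 0.038 FPKM. As background, Gpx4, Ftl1, Sod1, Txn1 and Prdx1 are genes for which processed copies are known in rodent genomes. Such copies were not searched for here and the counting of shared reads is not given in the sources used here, so the values of these genes are taken as uncertain.

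Glutathione supply genes and targets of ATF4, the transcription factor of the amino acid response, were listed together with Slc3a2, and 16 of 19 were tested. One rose and 6 fell (over all genes, 5.31% and 4.50%), and 4 of the 16 had a log2 fold change above 0. The median was -0.23, against -0.0057 over all genes tested. Gss, the gene of glutathione synthetase, the second step of the pathway, read 22.7, 27.3 and 27.1 FPKM in CON and 39.1, 41.0 and 38.6 FPKM in RA. Thus the gene of the second step rose (log2 fold change 0.61, SE 0.086, edgeR adjusted p = 0.00317) where those of the first, Gclc and Gclm, did not pass the test. Gss stayed a DEG unless CON sample 1 was left out, where it passed at 0.52 (adjusted p = 4.45e-05). Atf3, which encodes a stress-induced transcription factor, fell from 2.44 ± 0.191 to 1.36 ± 0.131 FPKM (SD, n = 3, log2 fold change -0.86, SE 0.14, edgeR adjusted p = 0.00631).

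Atf4 was named after its value was seen, as were the other genes of this paragraph. It read 401, 405 and 393 FPKM in CON and 325, 331 and 318 FPKM in RA. The groups were far apart relative to their spread, and the log2 fold change of -0.31 (SE 0.048, edgeR adjusted p = 0.00491) passed whichever sample was left out. Trib3, the gene of a pseudokinase induced by ATF4, had a log2 fold change of -0.45 (edgeR adjusted p = 0.0302), but passed in the fit without CON sample 1 alone (0.000118). The other 5 fits gave 0.0561 to 0.129. Slc1a4, the gene of a neutral amino acid transporter, had -0.34 (edgeR adjusted p = 0.0247) and passed without CON sample 1 (0.000264) and without CON sample 3 (0.0471), but at 0.0921 to 0.114 in the other 4 fits it did not. Ddit3, the gene of the stress-induced factor CHOP, had -0.39 (edgeR adjusted p = 0.0367) and passed without CON sample 1 (0.0083) and without CON sample 2 (0.0459), with 0.0509 to 0.165 in the remaining fits. Ggct, the gene of an enzyme that breaks down gamma-glutamyl amino acids, had -0.54 (edgeR adjusted p = 0.047), a call lost whichever sample was left out (0.0592 to 0.172). Genes of serine and asparagine metabolism, also targets of ATF4, did not pass the test: Psat1 was at 0.13, Shmt2 at 0.013, Phgdh at -0.024 and Asns at -0.16 on the log2 scale (edgeR adjusted p = 0.191 to 0.945).

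Heme and iron genes, which border on Hmox1, were tested for 7 of 8, and 1 rose (5.31% of all genes did). Por, the gene of cytochrome P450 reductase, which supplies electrons to heme oxygenase, read 29.4, 32.8 and 37.8 FPKM in CON and 44.9, 46.8 and 48.1 FPKM in RA (log2 fold change 0.47, SE 0.0982, edgeR adjusted p = 0.0196). Its call held without CON sample 1 or 3 and was lost without CON sample 2 (0.0881) and without any 1 of the RA samples (0.058 to 0.0924). Oxidant-producing enzymes were tested for 7 of 13, 5 more being below the filter on low counts, and 1 fell (4.50% of all genes did). Nox4, the gene of an NADPH oxidase that releases hydrogen peroxide, read 1.02, 0.981 and 1.01 FPKM in CON and 0.512, 0.663 and 0.629 FPKM in RA (log2 fold change -0.75, SE 0.169, edgeR adjusted p = 0.0263). The Nox4 call held without CON sample 1 and was lost in the other 5 fits (0.0641 to 0.0982).

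Over these 6 lists together, 83 of 96 genes were tested, 8 rose, 10 fell and 65 did not pass the test. The DEGs were 4 higher (Maff, Gpx3, Prdx5 and Gss) and 3 lower (Me1, Atf3 and Nox4). Over the 83 genes tested the median log2 fold change was 0.0024, against -0.0057 over all genes. In both directions together, 18 of the 83 passed and 7 were DEGs, where 9.82% of all genes passed and 4.96% were DEGs.

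**Figure D4:**
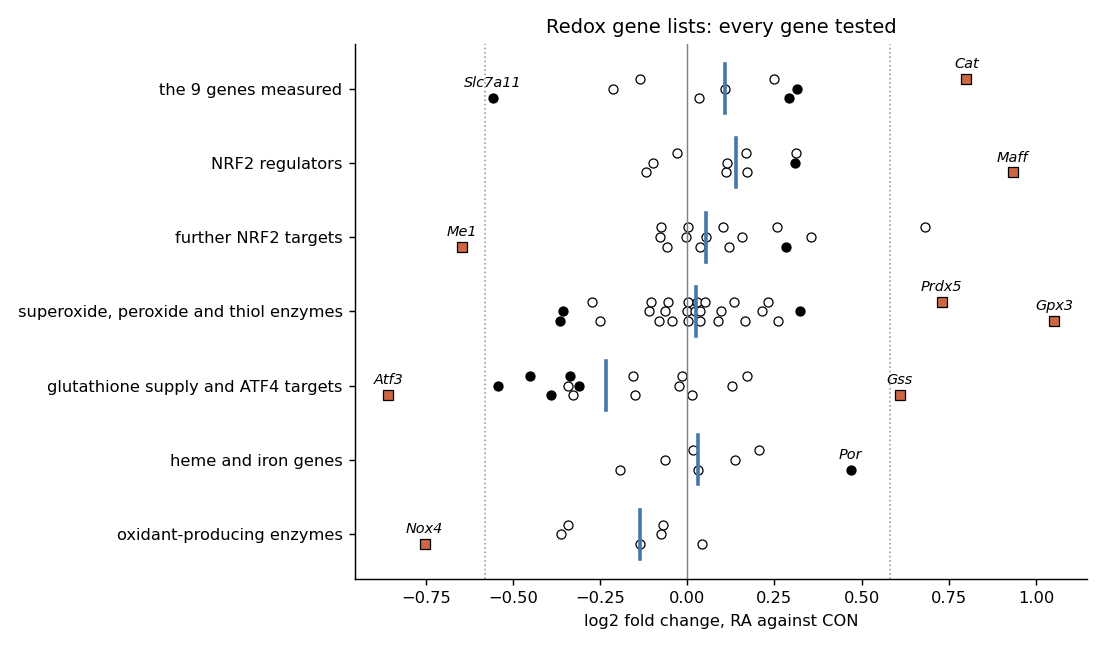
The log2 fold change in RA against CON (horizontal axis) of every gene tested in the set of 9 and in 6 lists of related genes. Filled symbols passed the test, orange squares are DEGs, blue bars are list medians and dotted lines mark 0.58 in both directions. The medians lie between -0.23 for glutathione supply and ATF4 targets and 0.14 for NRF2 regulators.

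The gene whose normalized log2 count followed each of the 9 most closely over the 6 samples was sought by Pearson's r among 11341 other genes with a mean of at least 1 FPKM. With 6 points that share the group difference and the place of CON sample 1, high values are common, and they are given as a description. Fabp3 was the nearest to Nqo1 (r = 0.9990) and Trpv4 to Hmox1 (0.9989). Arrb1 was nearest to Txnrd1 (0.9973), Slc1a1 to Slc7a11 (0.9953) and Arrdc3 to Cat (0.9948). For the other 4 genes the nearest were Kitlg for Gclc (0.9918), Smim7 for Gclm (0.9793), Rab43 for Sod2 (0.9971) and Herpud1 for Sod3 (0.9971). The number of genes with r above 0.95 ran from 16 for Gclm to 386 for Sod2.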

How the data were processed

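Poly(A) RNA-seq of 3 CON and 3 RA samples was used. For each sample the authors deposited read counts per gene and FPKM (scaled to gene length and library size). The submitters' processing notes name HISAT2, HTSeq 0.13.5 and Rnor_6.0. The handling of strand and of shared reads is not given in the sources used here. Counts were tested in edgeR 4.0.16 (R 4.3.3): TMM scaling, filterByExpr with a minimum count of 10, quasi-likelihood test, group alone in the model, all 6 samples, Benjamini-Hochberg adjustment over 13438 genes. The common biological coefficient of variation was 0.122. Levels are the deposited FPKM. Scripts were tested on simulated data.

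The members and gene lists were chosen with earlier results of these data known, so none is independent evidence. Genes named were all members with a row, Nfe2l2, Keap1, Bach1, Sod1 and Slc3a2, the DEGs of the 6 related lists and of the retinoid response list and, where a related list had none, its member with the lowest p. Marker genes were named after their values were seen. Other such genes are marked. A retinoid response gene is not reported here. Alternatives were other scaling (RLE, total count), DESeq2 1.42.0, other filters (none, or FPKM of at least 1 in 3 samples), limma 3.58.1 on log2(FPKM + 0.1) or log2(FPKM + 1), other DEG rules, a replicate block and leaving out each sample. Depth floors of 3 counts cover counting error only.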

Additional observations from a re-analysis of the deposited data

How the results depend on the processing

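Over 14 alternatives the 9 genes gave 126 values, of which 112 kept their direction and their side of the threshold, 8 lost the call (each with a sample left out), 5 gained it and 1 reversed, Gclc without CON sample 3 (-0.043 to 0.131 with a sample left out). Over all 38 genes followed, 454 of 529 values kept both, 65 lost the call, 8 gained it and 2 reversed, the other being Sod1 without CON sample 1 (-0.063 to 0.091). The number of DEGs among the 9, 1 in the report, was 0 to 2 with a sample left out and 4 by adjusted p alone. Among all genes, 667 DEGs became 434 with limma on log2(FPKM + 1), 1319 by adjusted p alone, 1017 by unadjusted p with the fold threshold, and 480 to 755 with a sample left out. Among the genes of the 6 other lists, 7 DEGs became 18 by adjusted p alone and 5 to 7 with a sample left out. The Sod3 share differed by -3.02 to -1.95 percentage points with a sample left out and by -3.82 when counts without length scaling were used. The Gclm to Gclc ratio differed by -0.0168 to 0.0499 with a sample left out. The cause of these shifts was not tested. Every scaling moved the median of all genes by less than 0.1. Same-numbered CON and RA samples did not deviate together over all genes tested (r = 0.0928, -0.0123 and 0.0118). Such values over all genes cannot decide whether the numbers pair the samples, since single genes can still deviate together. With the replicate number as a block, DEGs were 1 of the 9, 684 of all genes and 7 in the other lists, and Hmox1 (adjusted p = 0.0493) and Sod2 (0.0495) passed, while Rarb (0.0526) and Ggct (0.0697) no longer did. The edgeR adjusted p of Cat was 3.04e-04 with the block, against 0.0156 without it. The counts behind the 9 genes limit precision most for Gclm, at 490 to 618 a sample.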
